A study of Rattus norvegicus with 29 samples.

Results

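The 9 microarrays of 4-month-old rats, out of 29 arrays in the series, were described on their own, to show which genes the CA1 field of the hippocampus expressed brightly, dimly or not detectably. The labels give male Fischer rats, 10 at this age, that learned 2 tasks (SWM and OMT) over a sequence of 7 days, with CA1 tissue taken 24 hours later. No untrained group enters these values, so training is shared by all 9 arrays, and the labels do not say that an array holds the RNA of a single rat. Members were all probe sets other than controls that were called present on every one of the 9 arrays: 2791 of 8740 (31.9%). Array young 1 was not analysed here.

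CA1 is the output field of the hippocampal circuit. Its excitatory pyramidal neurons receive Schaffer collateral input from CA3 and are contacted by several kinds of inhibitory interneurons, and astrocytes, myelinating oligodendrocytes, microglia and blood vessels make up the rest of the tissue. RNA of a dissected block is a mixture of all of these cells, so fewer cells of a type and less RNA per cell cannot be told apart. The array, Affymetrix rat genome U34A, reads each transcript with a probe set of matched and mismatched probe pairs. Its software gives a signal in arbitrary units and a detection call of present (P), marginal (M) or absent (A).

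In these files a present call went with a detection p-value of at most 0.0394 and an absent call with one of at least 0.0604. The share of probe sets called present ran from 37.0% to 41.8% over the 9 arrays. Pairwise correlations of log2 signal over the 2791 probe sets ran from 0.938 to 0.987 across probe sets, which are not independent replicates. At the other end 4267 probe sets (48.8%) were absent on all 9 arrays, and 1682 (19.2%) had mixed calls. Levels below are log2 signals after scaling, and a value after ± is the SD over the arrays (n = 9).

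A single gene name was available for 7006 probe sets, several names for 308 and none for 1426. The named probe sets stood for 4736 genes. Of these genes, 1785 (37.7%) had at least one probe set present on all 9 arrays, 1988 (42.0%) were absent on all 9 by every probe set, and 963 (20.3%) had mixed calls. Signal also depends on how well each probe set binds, so the order of genes is an order of array brightness and not of transcript number. Among the 432 genes with 2 or more probe sets present on all 9 arrays, the means of the brightest and dimmest probe set differed by a median of 1.04 log2 units. Of the 1565 genes with 2 or more probe sets of any call, 281 had one present on all 9 and another absent on all 9. Among genes named below, Pdgfra, Fn1, Scn8a, Kcnc2, Cacna1d, Rbm39 and Nr3c1 each had 1 probe set present on all 9 and more than 1 absent on all 9. Bdkrb1, Cacna1b, Ccne1, Kcnh3, Nedd8, S100b, Scn3a and Slc2a3 had 1 present on all 9 and the other absent on all 9. Aif1, Atp1b2, Gabbr2, Gclm and Htr3a had 1 of each kind among 3. A gene is represented below by its brightest probe set present on all 9 arrays.

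The brightest named gene was Ywhah, which encodes the eta form of the signalling adaptor 14-3-3. Its log2 signal ran from 15.15 to 15.97 with a median of 15.42 on the 9 arrays, with a mean of 15.49 ± 0.28. The subunit COX1 of cytochrome c oxidase, which is encoded in mitochondrial DNA, ran from 14.78 to 16.05 with a median of 15.35. Atp1b1, the beta-1 subunit of the sodium pump, ran from 15.01 to 15.68 with a median of 15.44. The ranges of these 3 genes overlapped, so their order within the top of the ranking is not settled by the arrays. Thy1, a surface glycoprotein of projection neurons, had a mean of 15.33 ± 0.24, and the small ribosomal protein gene Rps29 one of 15.30 ± 0.32.

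The rest of the 20 brightest genes fell into a few roles. The cytoskeleton supplied Tuba1b (alpha-tubulin, 15.23 ± 0.38), Tmsb4x (the actin-binding thymosin beta-4, 15.19 ± 0.28), Actg1 (15.10 ± 0.19) and Actb (15.03 ± 0.19). Energy supply was represented by COX3 (15.13 ± 0.45), Cox8a (15.00 ± 0.49) and the brain creatine kinase Ckb (14.98 ± 0.21). Atp6v0c, a subunit of the proton pump that acidifies vesicles, had a mean of 15.13 ± 0.22. Glia-rich transcripts were Apoe, the lipid carrier made by astrocytes (15.04 ± 0.25), and Mbp, myelin basic protein (14.96 ± 0.16). Psap, a precursor of lysosomal activators, had a mean of 15.09 ± 0.40, Rps16 of 15.07 ± 0.22, the chaperone Hsp90ab1 of 15.03 ± 0.35 and Ndrg4 of 14.96 ± 0.29. The place of Oaz2 (15.36 ± 0.33) rests on a probe set that the platform annotation names Oaz2 while the deposited file describes it as mitochondrial cytochrome oxidase subunit I, so it is not read here as the antizyme gene.

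Of the 50 brightest probe sets, 26 carried 1 gene name, 9 several and 15 none. By their descriptions in the files, 5 of the 50 read mitochondrial transcripts, besides the probe sets named COX1 and COX3. At the dim end of the 1785 genes stood Naa16 (7.57 ± 0.31), Gclm, the modifier subunit of glutathione synthesis (7.85 ± 0.36), Ppat (7.88 ± 0.34), Zfp280d (8.17 ± 0.40), Leo1 (8.17 ± 0.33) and Nfe2l2, the transcription factor NRF2 (8.17 ± 0.43). The median over the 1785 genes was 11.33. Just outside the rule, 224 probe sets were present on 8 of 9 arrays, with a median of 9.62 against 11.33 for the 2791 inside it.

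The letters upstream of the start were counted for genes present on all 9 arrays and for genes of other organs. The windows used here are RefSeq's for the rat build GRCr8, from 250 bases before to 50 bases after the annotated start, and 1504 of the 1785 present genes had one. Searched on both strands were GGGCGG (the GC box that Sp1 family factors bind), TATAAA (the TATA box), CCAAT, and TGACGTCA (the full cAMP response element). To show the contrast, the 150 bases before the start are printed for Ywhah, the brightest named gene, for Cox8a, the brightest nuclear respiratory chain gene, for the interneuron peptide gene Npy, and for a pair of genes absent on all 9 arrays, the liver gene Alb and the pancreatic amylase gene Amy2a3, the first in alphabetical order of the absent genes of other organs with a TATAAA in that stretch. Capitals mark any of the 4 motifs on either strand.

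Ywhah, chr14:81930203-81930352, minus strand: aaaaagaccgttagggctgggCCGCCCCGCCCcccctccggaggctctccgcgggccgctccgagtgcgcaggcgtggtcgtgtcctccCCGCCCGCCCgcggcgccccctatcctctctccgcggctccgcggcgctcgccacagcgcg
Cox8a, chr1:213833624-213833773, minus strand: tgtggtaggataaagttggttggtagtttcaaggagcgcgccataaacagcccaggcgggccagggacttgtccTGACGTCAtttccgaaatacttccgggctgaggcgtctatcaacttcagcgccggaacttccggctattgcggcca
Npy, chr4:80211961-80212110, plus strand: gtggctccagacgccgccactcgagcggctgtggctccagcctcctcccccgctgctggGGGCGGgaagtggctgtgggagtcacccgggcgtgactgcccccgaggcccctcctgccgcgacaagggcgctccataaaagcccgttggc
Alb, chr14:17906980-17907129, minus strand: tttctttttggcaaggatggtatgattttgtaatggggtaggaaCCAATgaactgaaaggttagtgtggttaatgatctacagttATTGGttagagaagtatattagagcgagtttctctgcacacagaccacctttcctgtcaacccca
Amy2a3, chr2:204014413-204014562, minus strand: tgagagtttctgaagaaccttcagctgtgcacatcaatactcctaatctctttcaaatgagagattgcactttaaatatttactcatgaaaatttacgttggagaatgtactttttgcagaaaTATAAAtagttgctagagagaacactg

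In Ywhah 4 matches to GGGCGG lie in 2 overlapping pairs, all on the opposite strand. The Cox8a window has a TGACGTCA 76 bases before the start, and the Amy2a3 window a TATAAA 27 bases before it. Over the 1504 present genes 69.0% of windows held GGGCGG and 7.11% held TATAAA. The shares were 56.2% and 11.3% over the 3871 windows of all named genes, which include the present ones. Over all 27457 windows in the table they were 34.9% and 14.3%. Of the 95 windows of genes from 8 lists of other organs, 15.8% held GGGCGG and 45.3% TATAAA. The median ratio of observed to expected CpG was 0.816 in present genes and 0.691 over all named genes. It was 0.680 in the 791 windows of genes with mixed calls and 0.242 in the lists of other organs. Within the present genes the brightest 10% and dimmest 10% had GGGCGG in 70.0% and 67.3% of windows. TATAAA was found in 18 of 150 windows of the brightest 10% and in 10 of 150 of the dimmest 10%. TGACGTCA was found in 11 of 150 windows of the brightest 10% and in 2 of 150 of the dimmest 10%. Of genes absent on all 9 arrays only 79.3% had a window, against 81.9% in the organ lists and 82.1% with mixed calls. The 1576 windows of absent genes held GGGCGG in 44.1% and TATAAA in 15.0%, with a median CpG ratio of 0.468. These figures leave out the absent genes without a window and are given as a description alone. The organ lists are chosen genes and do not stand for absent genes in general. CCAAT was found in 39.2% of windows of present genes and 37.7% of all windows. A match is a description of letters and does not show that a factor binds.

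Genes used by neurons of all kinds were bright. Of 20 measured, 18 were present on all 9 arrays and none was absent on all 9, against 37.7% and 42.0% of all named genes, and the median level of the 18 was 13.11 against 11.33. Thy1 led the list, followed by Uchl1, a deubiquitinase (14.79 ± 0.16), and Rtn1, a reticulon of the endoplasmic reticulum (14.48 ± 0.10). Snap25, the t-SNARE of synaptic release, ran from 13.77 to 14.41 with a median of 14.11. The dimmest was Syt1, the calcium sensor of release, at 10.01 ± 0.52. All 4 probe sets of Snap25 were present on all 9 arrays, but their means spread from 9.39 to 14.11, which shows how far a gene's place depends on the probe set.

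**Figure D1:**
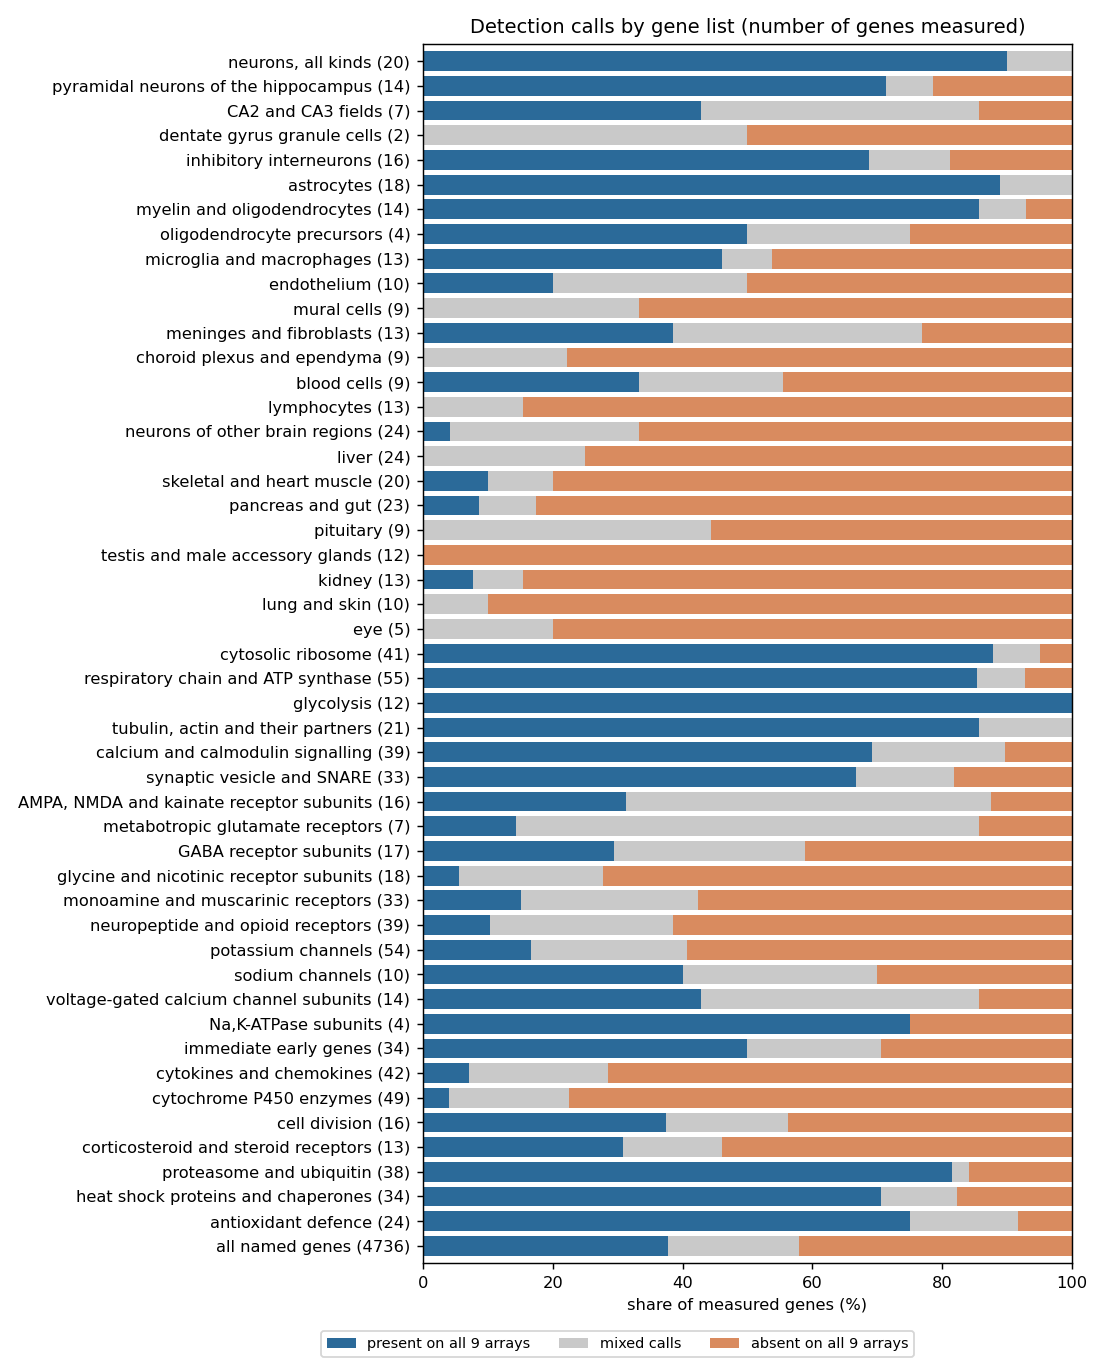
Share of measured genes (x axis, percent) in each of 48 gene lists and among all 4736 named genes that were present on all 9 arrays (blue), had mixed calls (grey) or were absent on all 9 arrays (orange), with the number measured in brackets. All 12 glycolysis genes were present on all 9 arrays, and all 12 testis and accessory gland genes were absent on all 9.

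Pyramidal neuron genes of the hippocampus were mostly present, with named exceptions. Of 14 measured, 10 were present on all 9 arrays with a median level of 13.13. Hpca, the hippocampal calcium sensor hippocalcin, ran from 14.04 to 14.95 with a median of 14.55. Nrgn, the calmodulin-binding postsynaptic protein neurogranin, ran from 14.06 to 14.76 with a median of 14.27, and Chn1, the Rac regulator chimaerin, had a mean of 14.30 ± 0.25. The dimmest was Nr3c2, the mineralocorticoid receptor, at 10.79 ± 0.19.

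The exceptions included genes that are textbook components of these cells. Camk2a, the alpha subunit of CaM kinase II, was present on 3 of 9 arrays by its better probe set and on 1 of 9 by the other. Slc17a7, the vesicular glutamate transporter VGLUT1, was absent on all 9 arrays by its single probe set, with detection p-values from 0.956 to 0.997. Camk4 and Neurod2 were also absent on all 9. An absent call therefore cannot be read here as an unexpressed gene. Wfs1, which marks CA1 pyramidal cells, had no probe set with a single gene name, so this marker of the labelled tissue was not checked.

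Markers of the neighbouring hippocampal fields were partly detected. Of 7 genes known from CA2 and CA3, 3 were present on all 9 arrays: Rgs14, a CA2 signalling regulator (12.54 ± 0.25), Pcp4, a calmodulin-binding peptide (12.20 ± 0.34), and Bok, a Bcl-2 family member (11.81 ± 0.21). Grik4, the kainate receptor subunit typical of CA3, was present on 2 of 9 arrays by one probe set and absent on all 9 by the other. Of 2 dentate granule cell genes measured, none was present on all 9, and Prox1, their defining factor, had no probe set with a single name. The part of neighbouring fields in the RNA was not tested.

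Inhibitory interneurons were represented by bright and dim peptides. Of 16 genes measured, 11 were present on all 9 arrays, with a median level of 11.87. Sst, the peptide somatostatin of cells that innervate pyramidal dendrites, ran from 13.83 to 14.28 with a median of 13.94. Cck, the peptide of a class of basket cells, had a mean of 13.86 ± 0.11. Gad1, the GABA-synthesising enzyme, had a mean of 12.94 ± 0.27, and Npy, neuropeptide Y, ran from 11.66 to 12.11 with a median of 11.86. The ranges of Sst, Gad1 and Npy each spanned under 1 log2 unit. Penk, the enkephalin precursor, was the dimmest at 9.79 ± 0.34. The peptide genes Tac1 (10.82) and Tac3 (10.41) also lay below the median of 11.33 of all genes present on all 9. Vip, another peptide gene, was present on at most 4 of 9 arrays. Calb2 (calretinin), Crh and Nos1 were absent on all 9 arrays.

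**Figure D2:**
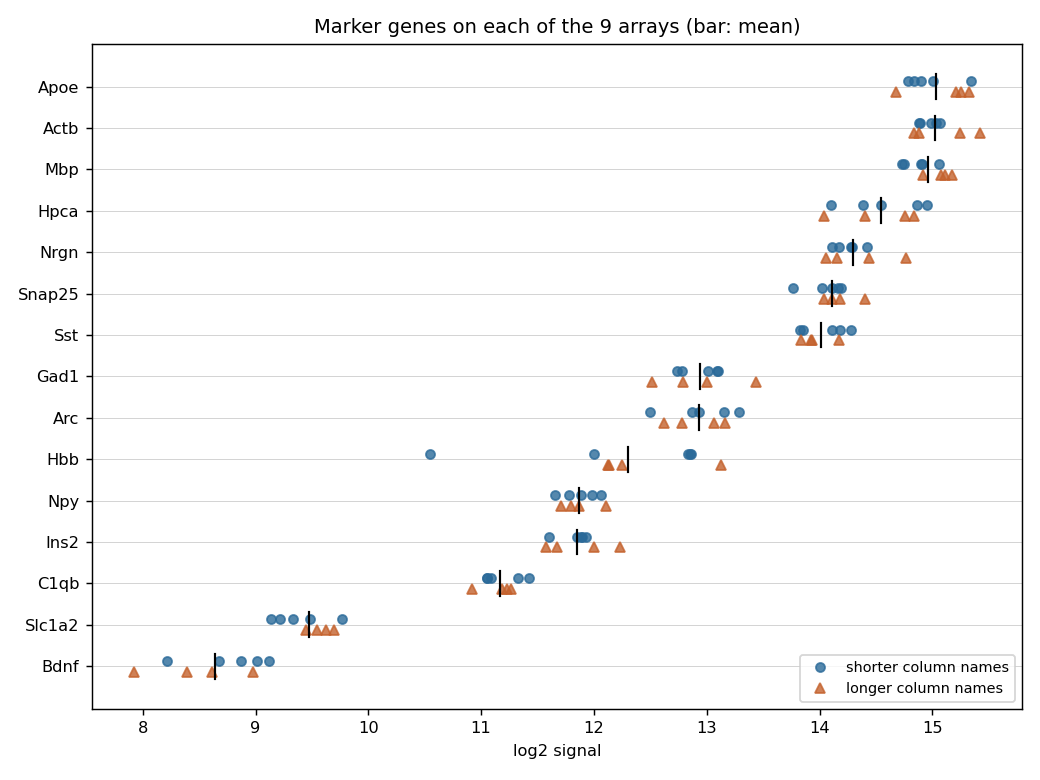
Log2 signal (x axis) of 15 genes on each of the 9 arrays, with circles for the 5 arrays of shorter column names, triangles for the 4 of longer names and a bar at the mean. The arrays of a gene lie within 1 log2 unit except for Bdnf and for Hbb, which spans 10.55 to 13.13.

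Astrocyte genes had the highest median level of the cell type lists. Of 18 measured, 16 were present on all 9 arrays and none was absent on all 9, with a median level of 13.90. Apoe ran from 14.67 to 15.34 with a median of 15.00, Aldoc, the aldolase of astrocytes, ran from 14.73 to 15.20 with a median of 14.94, and S100b, a calcium-binding protein, had a mean of 14.87 ± 0.22. The other probe set of S100b was absent on all 9. Aqp4, the water channel of astrocytic endfeet, was the dimmest at 9.27 ± 0.50. Slc1a2, the main glutamate transporter of astrocytes, had a mean of only 9.47 ± 0.21 by the one of its 4 probe sets that was present on all 9 arrays, while 2 others were absent on all 9. Gfap had no probe set with a single name.

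Oligodendrocyte and myelin genes were present in 12 of 14 cases, with a median level of 12.17. Mbp ran from 14.73 to 15.17 with a median of 14.91, the myelin protein Mobp had a mean of 14.51 ± 0.18 and Mal of 12.60 ± 0.23. Lpar1, a lysophosphatidic acid receptor, was the dimmest at 10.19 ± 0.35, and Sox10, the lineage factor, was absent on all 9 arrays, though with a smallest detection p-value of 0.0604 it lay at the border of the call. Of 4 genes of oligodendrocyte precursors, Pdgfra (10.97 ± 0.34) and Ptprz1 (10.34 ± 0.27) were present on all 9, and Cspg4 was absent on all 9.

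Microglial genes were split. Of 13 measured, 6 were present on all 9 arrays and 6 were absent on all 9, and the median level of the 6 was 10.45, below the 11.33 of all genes. Ctss, the lysosomal protease cathepsin S, ran from 14.11 to 14.35 with a median of 14.19 with the smallest SD of the named genes present on all 9 (14.20 ± 0.09). C1qb, a chain of complement C1q, ran from 10.92 to 11.43 with a median of 11.18. Lyz2, lysozyme, had a mean of 10.68 ± 0.15 and Aif1, the calcium-binding protein IBA1, of 8.64 ± 0.17. C1qc, Cd74 (the invariant chain of MHC class II) and Csf1r (the receptor that keeps microglia alive) were absent on all 9. The 4 probe sets of Cd74 were all absent, with a smallest detection p-value of 0.117.

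Vascular genes were sparse. Endothelium had 2 of 10 genes present on all 9 arrays, the glucose transporter Slc2a1 (12.66 ± 0.28) and the organic anion transporter Slco1a4 (11.20 ± 0.25), while Abcb1a, Flt1 and Icam2 were absent on all 9. Mural cells had 0 of 9 present on all 9 and 6 absent, among them Cnn1, Des and Kcnj8. Genes of meninges and fibroblasts were not sparse. Of 13, 5 (38.5%) were present on all 9 and 3 (23.1%) absent, against 37.7% and 42.0% of all named genes. The 5 were Sparc, a matrix protein also made by astrocytes (14.55 ± 0.45), Ptgds (12.20 ± 0.20), Fn1 (10.38 ± 0.16), Col1a1, and Dcn (8.90 ± 0.40) as the dimmest. The 4 probe sets of Sparc had means from 10.33 to 14.55. Aldh1a2, Bgn and Col1a2 were absent on all 9.

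Choroid plexus, which lies against the hippocampus in the ventricle, left little signal. Of 9 genes of choroid plexus and ependyma none was present on all 9 arrays and 7 were absent on all 9, among them Ace, Aqp1 and Foxj1. Ttr, transthyretin, which choroid epithelium secretes in large amounts, was present on 5 of 9 arrays by one probe set and on 1 by the other. Its level on that first probe set ran from 6.86 to 11.16, a wider range than that of any named gene present on all 9.

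Blood was detected through haemoglobin. Of 9 genes, 3 were present on all 9 arrays: Hbb (12.30 ± 0.78), Hbb-b1 (11.59 ± 0.27) and Slc4a1, the band 3 anion exchanger of red cells (10.38 ± 0.19). Hbb ran from 10.55 to 13.13 with a median of 12.25, with young 7 the lowest. Its 2 genes share closely related sequence, so probe sets may read both. No lymphocyte gene of 13 was present on all 9 and 11 were absent on all 9, among them Cd2, Cd3d and Cd4.

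The housekeeping groups formed the bright end. Of 41 genes of the cytosolic ribosome, 36 were present on all 9 arrays, with a median level of 13.94 and 34 of the 36 above the median of all genes. Rpl31 (14.79 ± 0.12) followed Rps29 and Rps16, and Rps27l was the dimmest (10.59 ± 0.10). The list takes genes by the start of their symbol, so it holds ribosomal-like genes such as Rps27l. Rpl30 and Rps24 were absent on all 9.

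The respiratory chain and ATP synthase had 47 of 55 genes present on all 9 arrays, all 47 above the median of all genes, with a median level of 13.18. Cox8a, Cox4i1 (14.81 ± 0.30) and Cox6a1 (14.74 ± 0.31), all subunits of cytochrome c oxidase, led the list, and the assembly factor Ndufaf3 was the dimmest (11.41 ± 0.24). Among those absent on all 9 were Cox6a2 and Cox8b, the forms of the same enzyme used by muscle. All 12 glycolysis genes were present on all 9, led by Aldoc, Pkm (14.77 ± 0.20) and Pgam1 (14.75 ± 0.22) and ending with the neuronal glucose transporter Slc2a3 (10.39 ± 0.18). Of 21 genes of tubulin, actin and their partners 18 were present on all 9, from Tuba1b down to the gamma-tubulin gene Tubg1 (9.51 ± 0.26).

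Protein turnover and stress defence were mostly detected. Proteasome and ubiquitin genes were present on all 9 arrays in 31 of 38 cases, with Uchl1, Psmb5 (13.79 ± 0.12) and Nedd8 (13.47 ± 0.15) on top and Ube2q2 at the bottom (8.43 ± 0.35). Psmb8 and Psmb9, the catalytic subunits of the immunoproteasome that interferon induces, were absent on all 9. Chaperones were present in 24 of 34 cases, led by Hsp90ab1, Fkbp1a (14.34 ± 0.14) and Canx (13.78 ± 0.62), down to Hspa2 (8.63 ± 0.29). The 5 probe sets of Canx had means from 9.47 to 13.78. Antioxidant genes were present in 18 of 24 cases, led by Gpx4 (13.67 ± 0.21), Prdx2 (13.54 ± 0.15) and Gstm1 (13.54 ± 0.22), with Hmox1 and Sod3 absent on all 9.

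**Figure D3:**
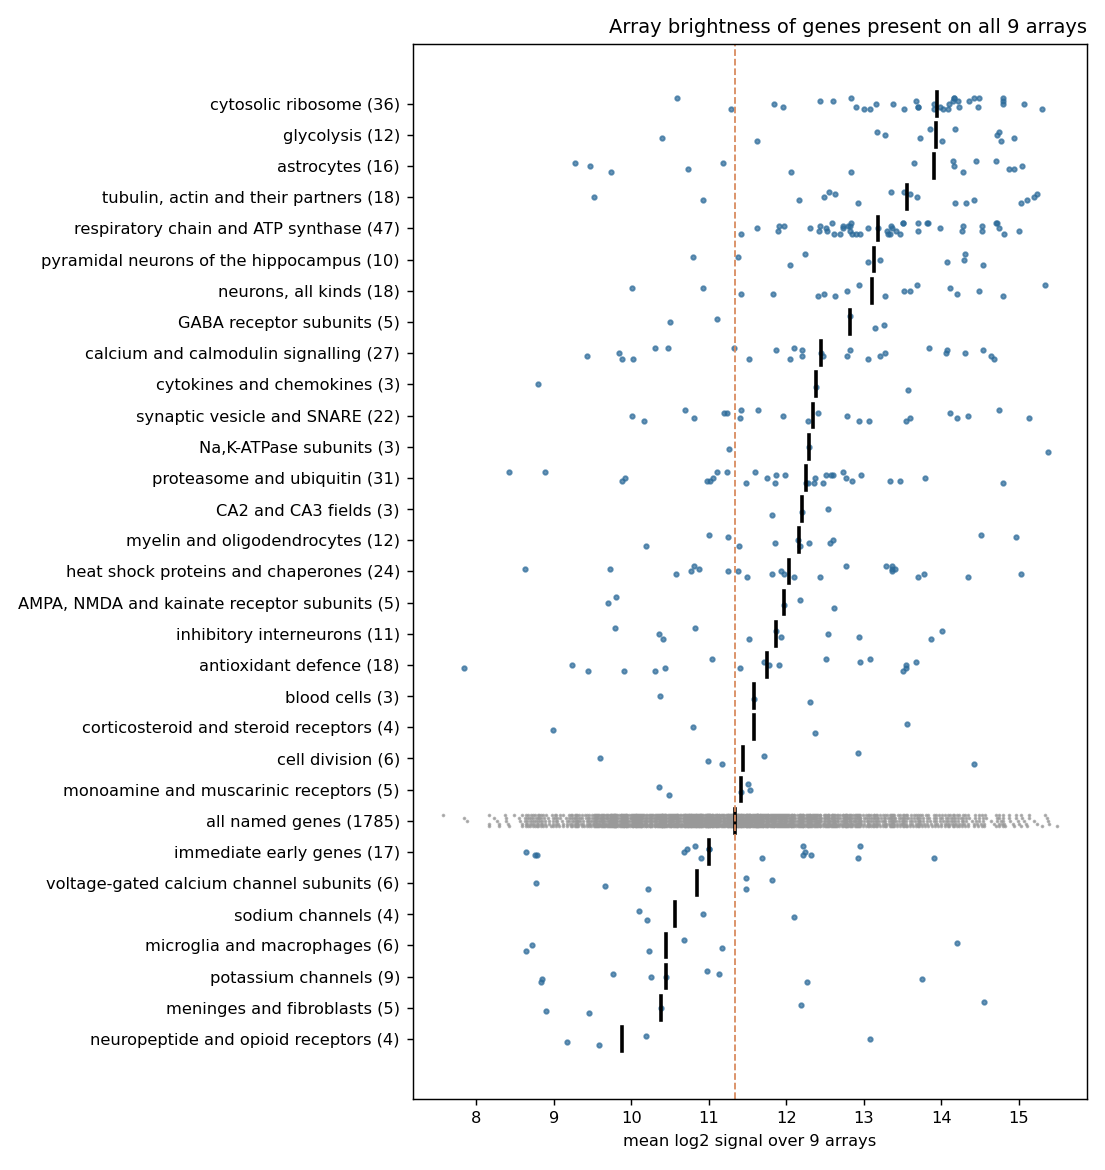
Mean log2 signal over the 9 arrays (x axis) of each gene present on all 9, by list, with the number of genes in brackets. Black bars mark the median of each list and the dashed line the median of all 1785 genes (11.33). Ribosome and glycolysis lie at the bright end, and neuropeptide receptors and potassium channels at the dim end.

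Calcium signalling and vesicle release lay above the middle. Of 39 genes of calcium and calmodulin signalling, 27 were present on all 9 arrays, with a median level of 12.45. Atp2a2, the calcium pump of the endoplasmic reticulum, had a mean of 14.68 ± 0.15 and Calm2, calmodulin, of 14.64 ± 0.12, while Atp2a3, another pump of that family, was the dimmest at 9.43 ± 0.27. Ppp3r2, the testis form of the calcineurin regulatory subunit, was absent on all 9. Of 33 vesicle and SNARE genes 22 were present on all 9, with a median of 12.35. Dnm1, the dynamin of vesicle retrieval (14.74 ± 0.31), and Sv2b (14.34 ± 0.31) followed Atp6v0c, while Bsn, Rph3a and Sncg were absent on all 9.

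Receptor lists had smaller shares present on all 9 arrays than the 37.7% of all named genes, by a wide or a narrow margin. AMPA, NMDA and kainate subunits had 5 of 16 (31.3%) present on all 9 and 2 absent on all 9 (Grik3 and Grin3a), the other 9 having mixed calls. Gria1, an AMPA subunit needed for potentiation at CA1 synapses, ran from 11.32 to 13.32 with a median of 12.86, Grik5 had a mean of 12.17 ± 0.16, Gria2 of 11.98 ± 0.14 and Gria3 of 9.70 ± 0.36. Of 7 metabotropic glutamate receptors Grm3 alone was present on all 9 (12.54 ± 0.43), and Grm5 was absent on all 9.

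GABA receptor subunits were present on all 9 arrays in 5 of 17 cases (29.4%), with Gabbr2 (13.27 ± 0.23) and Gabbr1 (13.15 ± 0.12), both subunits of the GABA-B receptor, brightest, then Gabrb2 (12.82 ± 0.30), and Gabra2 dimmest (10.49 ± 0.33). Gabra3, Gabre and Gabrg3 were absent on all 9. Of 18 glycine and nicotinic receptor subunits 1 was present on all 9 and 13 were absent. That 1 was Chrnb4 (9.93 ± 0.20), whose second probe set was absent on all 9. Of 33 monoamine and muscarinic receptors 5 were present on all 9, among them Drd3 (11.54 ± 0.16), Htr5b (11.50 ± 0.20), Chrm3 (11.41 ± 0.31) and Htr3a (10.36 ± 0.25). Here too the second probe set of Drd3 was absent on all 9. Adra1a, Adra1b and Adra2a were absent on all 9.

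Of 39 neuropeptide and opioid receptors 4 were present on all 9 arrays and 24 absent. Ntsr2, the neurotensin receptor of astrocytes, was the bright one (13.08 ± 0.14), ahead of Sstr2 (10.18 ± 0.38), Bdkrb1 (9.58 ± 0.54) and Npy1r (9.17 ± 0.36).

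Ion channel lists were unlike each other. Of 54 potassium channel genes 9 (16.7%) were present on all 9 arrays and 32 absent, with a median level of 10.45 for the 9. Kcnab2, an auxiliary beta subunit (13.76 ± 0.15), Kcnh3 (12.27 ± 0.15) and Kcnc2 (11.13 ± 0.48) were brightest and Kcna4 dimmest (8.83 ± 0.19). The other probe set of Kcnab2 had a mean of 10.37. Sodium channels had 4 of 10 present (40.0%, against 37.7% of all named genes), Scn2a (12.10 ± 0.12), Scn3a (10.92 ± 0.30), Scn1a (10.21 ± 0.22) and Scn8a (10.10 ± 0.14), which are the brain forms. Scn10a, Scn11a and Scn9a, the forms of sensory neurons, were absent on all 9. Calcium channel subunits had 6 of 14 present (42.9%), led by Cacna2d1 (11.82 ± 0.70), Cacna1b (11.48 ± 0.30) and Cacnb2 (11.47 ± 0.24) and ending with Cacna1d (8.77 ± 0.21), and the muscle form Cacna1s was absent on all 9. Of 4 sodium pump subunits measured, Atp1b3 (12.30 ± 0.14) and Atp1b2 (11.26 ± 0.33) joined Atp1b1, and the sperm form Atp1a4 was absent on all 9.

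Immediate early genes, which neurons switch on within minutes of activity, were described 24 hours after training. Of 34 measured, 17 were present on all 9 arrays and 10 were absent on all 9, with a median level of 11.01 for the 17. Egr1 ran from 13.52 to 14.52 with a median of 13.81. Its 3 probe sets present on all 9 had means down to 10.16, and 1 more was absent on all 9. Rheb, a small GTPase, had a mean of 12.95 ± 0.18 by its brighter probe set and of 9.21 by the other. Arc, the synaptic capsid-like protein, ran from 12.50 to 13.29 with a median of 12.93. Fos was present on 4 of 9 arrays by one probe set and absent on all 9 by both others. Bdnf, the neurotrophin, was among the dimmest genes, at 8.64 ± 0.40, by 1 of 7 probe sets, and 3 of the 7 were absent on all 9. Ccn1, Crem and Egr3 were absent on all 9.

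Nuclear receptors of stress and thyroid hormone were among the genes detected. Of 13 corticosteroid and steroid receptor genes 4 were present on all 9 arrays: Thra, the thyroid hormone receptor (13.56 ± 0.23), Hsd11b1, which regenerates active glucocorticoid (12.37 ± 0.31), Nr3c2 (10.79 ± 0.19) and Nr3c1, the glucocorticoid receptor (8.99 ± 0.24). Esr1, Esr2 and Hsd11b2 were absent on all 9. Thra and Nr3c1 were each present on all 9 by 1 of 3 probe sets, and the 2 others of Nr3c1 were absent on all 9. The levels come from different probe sets and do not order the receptors by transcript number.

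Cytokines and chemokines were rare. Of 42 genes 3 were present on all 9 arrays and 30 absent: Cx3cl1, the neuronal chemokine fractalkine (13.57 ± 0.28), Cxcl14 (12.39 ± 0.21) and Il33, an alarmin of glia (8.79 ± 0.19). Of 49 cytochrome P450 genes 2 were present and 38 absent. Both act in sterol metabolism outside the liver as well, Cyp51 in cholesterol synthesis (12.11 ± 0.31) and Cyp7b1, an oxysterol hydroxylase known from the hippocampus (10.80 ± 0.22). Of 16 cell division genes 6 (37.5%) were present and 7 (43.8%) absent, close to the 37.7% and 42.0% of all named genes. The 6 included Tubb5 (14.42 ± 0.16), Stmn1 (12.93 ± 0.21) and Pcna (11.72 ± 0.49), which non-dividing cells also use, down to Ccne1 (9.59 ± 0.24). Aurkb, Ccnb1 and Cdc20, which act at mitosis, were absent on all 9.

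Genes of other organs served as the measured floor. Over 8 lists, 116 genes of liver, muscle, pancreas and gut, pituitary, testis, kidney, lung and skin, and eye were measured. Of these 94 (81.0%) were absent on all 9 arrays, 17 had mixed calls and 5 were present on all 9. Alb was absent on all 9 by each of its 4 probe sets, and all 12 testis and accessory gland genes were absent on all 9. Gh1, growth hormone, was present on 1 of 9 arrays.

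The 5 exceptions were Ins2 (11.85 ± 0.21), Ins1 (10.95 ± 0.53), Pygm (10.99 ± 0.20), Acta1 (10.49 ± 0.19) and Kcnj1 (8.85 ± 0.38). For Ins1, Ins2 and Kcnj1 one probe set was present on all 9 arrays while both others of the gene were absent on all 9. Pygm, the muscle form of glycogen phosphorylase, which astrocytes also use, was present by both its probe sets. Of 24 genes of neurons in other brain regions 16 were absent on all 9, among them Cartpt, Chat and Dbh, and Slc18a3, the vesicular acetylcholine transporter, was present on all 9 by one probe set (9.88 ± 0.13) and on none by the other.

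Spread between the arrays was small for most members. The SD of log2 signal over the 9 arrays had a median of 0.23 over the 2791 probe sets, 95% lay below 0.48, and 120 exceeded 0.5. For the lists, the mean over present members in each array moved little. That of the neuron list ran from 12.94 to 13.10, that of astrocytes from 12.68 to 13.04 and that of myelin from 12.07 to 12.37. The 3 blood genes varied most, from 10.82 on young 7 to 11.79 on young 3.

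The 8 most variable genes had SDs from 0.70 to 0.91. Cplx2, complexin 2, which clamps vesicle fusion, ran from 9.66 to 12.95 with a median of 11.08. Nfix, a nuclear factor I gene, ran from 9.95 to 12.71 with a median of 12.16, and Cyb5a, cytochrome b5, ran from 9.77 to 12.30 with a median of 12.08. For Nfix and Cyb5a the lowest array, young 4 and young 5, stood apart from the other 8. The others were Hbb, Rab14 (11.40 ± 0.74), Gstt2 (10.69 ± 0.71), Rbm39 (9.80 ± 0.70) and Cacna2d1.

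The brightest probe sets differed in level from array to array. The software had left probe pairs of some probe sets unused, in 20 probe sets on young 4 and in 336 on young 5, and the sources used here do not say why. Unused pairs were most frequent in the brightest 10% of probe sets, at 2.06% on young 4 and 13.3% on young 5. Arrays with more such probe sets had dimmer tops: the mean log2 signal of the brightest 1% of probe sets ran from 15.37 on young 4 down to 14.74 on young 5. The order of the 9 arrays was exactly reversed between both measures (Pearson r = -0.935, exact permutation p = 0.000320; Spearman rho = -1, p = 5.51e-06; n = 9), and without young 5 and young 6 r was -0.960. Over 5 such relations the adjusted p of r was 0.00160. Both measures draw in part on the same bright probe sets, so they are not independent. Within the 5 arrays of shorter column names r was -0.989, and within the other 4 it was -0.956.

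The Gapdh control ratio moved with the same number. The log2 ratio of its 3′ to its 5′ probe set, used as a sign of RNA integrity, ran from -0.47 on young 6 to 0.37 on young 4. Against the number of probe sets with unused pairs it gave r = -0.887 (exact permutation p = 0.00144, adjusted 0.00241; rho = -0.967, p = 0.000165; n = 9), and r = -0.936 without young 5 and young 6. The beta-actin ratio gave r = -0.892 (exact permutation p = 0.00141, adjusted 0.00241; rho = -0.883, p = 0.00308), and -0.718 without those arrays, while the hexokinase ratio gave 0.131 (exact permutation p = 0.730; rho = 0.0833, p = 0.843). The share present gave 0.461 (exact permutation p = 0.213; rho = 0.217, p = 0.581).

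**Figure D4:**
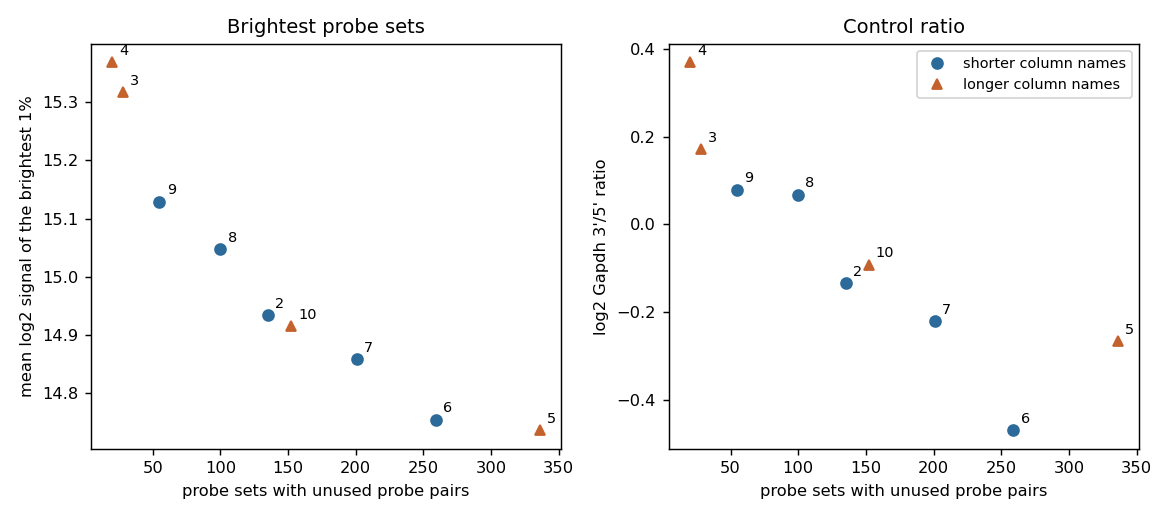
Each point is one of the 9 arrays, labelled by its number, with the number of probe sets that have unused pairs on the x axis. The y axis gives the mean log2 signal of the brightest 1% of probe sets (left) and the log2 Gapdh 3′ to 5′ ratio (right). Both fall from young 4, with 20 such probe sets, towards young 5 and young 6, with 336 and 259.

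In limma's fit of all 2791 probe sets on the Gapdh ratio, 34 (1.22%) passed an adjusted p of 0.05, 32 (1.15%) of them higher with a higher ratio and 2 (0.0717%) lower. Of the 34, 32 lay among the 279 brightest probe sets, and 21 had unused pairs on at least one array, against 150 of the 2791. Among the named ones were Gnas, a G protein subunit (slope 2.24 ± 0.30 SE, limma adjusted p = 0.010), COX1 (1.55 ± 0.26, 0.0199) and Glul, glutamine synthetase (1.69 ± 0.30, 0.0211). Dimmer probe sets than those that represent the gene passed for Cox4i1 (1.79 ± 0.24, limma adjusted p = 0.010), Apoe (2.15 ± 0.30, 0.0103) and Snap25 (1.73 ± 0.26, 0.0103). The slope is the change in log2 signal for a difference of 1 in the log2 ratio. The 2 with negative slopes were Slc5a3 (-1.82 ± 0.34, 0.0238) and Ubac2 (-1.35 ± 0.26, 0.0251). Among probe sets with every pair used on all 9 arrays 2 passed, and with the log2 number of probe sets with unused pairs in the fit, 0 passed by limma (109 at an unadjusted p under 0.05). After quantile scaling, or with the beta-actin ratio in place of Gapdh's, 0 passed (265 and 358 unadjusted). Without young 4, 0 passed (214 unadjusted), without young 3, 15, without young 5, 22, and without young 7, 9.

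The arrays also carry 2 styles of column name in the file headers, shorter on 5 (young 2, 6, 7, 8 and 9) and longer on 4 (young 3, 4, 5 and 10), whose meaning no label or header gives. The share of probe sets present was 38.9% ± 1.4 (SD, n = 5) against 40.0% ± 1.3 (n = 4), a difference of -1.08 points (exact permutation p = 0.286, two-sided). The Gapdh ratio differed by -0.18 (exact permutation p = 0.325). Neither difference exceeded the spread between arrays. The hexokinase ratio was 1.22 ± 0.28 (SD, n = 5) against 1.81 ± 0.41 (n = 4), a difference of -0.59 that was larger than either SD (exact permutation p = 0.0635), and its 5′ probe set was absent on young 4.

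By limma, 78 of 2791 probe sets (2.79%) differed between the styles at an adjusted p of 0.05, 52 (1.86%) higher and 26 (0.932%) lower in the arrays of shorter names. With each array scaled to its median, 33 of 66 were higher. The smallest p was that of Scd2, a fatty acid desaturase, which ran from 12.07 to 12.54 with a median of 12.36 under shorter names and from 10.70 to 11.41 with a median of 11.11 under longer names (1.27 ± 0.15 SE, limma adjusted p = 0.00455). Gnb1, a G protein beta subunit, was lower under shorter names, from 11.03 to 11.84 against 12.43 to 12.80 (-1.17 ± 0.16, limma adjusted p = 0.00807). The values of both groups did not overlap for either gene, which held for 222 probe sets (7.95%) of all tested.

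Both subunit types of the phosphatase calcineurin were among the named genes, in opposite directions. Ppp3r1, the regulatory subunit, was higher under shorter names by 0.97 ± 0.15 and Ppp3ca, the catalytic subunit, lower by a difference of -0.94 ± 0.16 (limma adjusted p = 0.0161 and 0.0167). The Ppp3r1 difference is that of a dimmer probe set than the one that represents the gene, which had a mean of 12.20. Rab5a (0.73 ± 0.10), Hsp90b1 (0.72 ± 0.12), Klc1 (0.96 ± 0.17) and Glod4 (0.62 ± 0.11) were also higher. For Hsp90b1 this was a dimmer probe set, and the brighter one that represents the gene did not pass. Nfib (-0.81 ± 0.14), Ntrk2, the BDNF receptor (-1.12 ± 0.19), Elavl4 (-0.83 ± 0.15) and Ccng1 (-0.77 ± 0.15) were lower. The count rested on few arrays: it was 155 without young 4, 33 without young 5 or young 9, 9 without young 7, 4 without young 8 and 3 without young 10. Among genes of the cell type lists none passed by its representative probe set. In the other lists the fit called 2 of 27 calcium signalling genes, 1 of 5 AMPA, NMDA and kainate subunits, 1 of 5 GABA receptor subunits, 1 of 6 calcium channel subunits and 1 of 31 proteasome genes, against 2.79% of all tested.

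**Figure D5:**
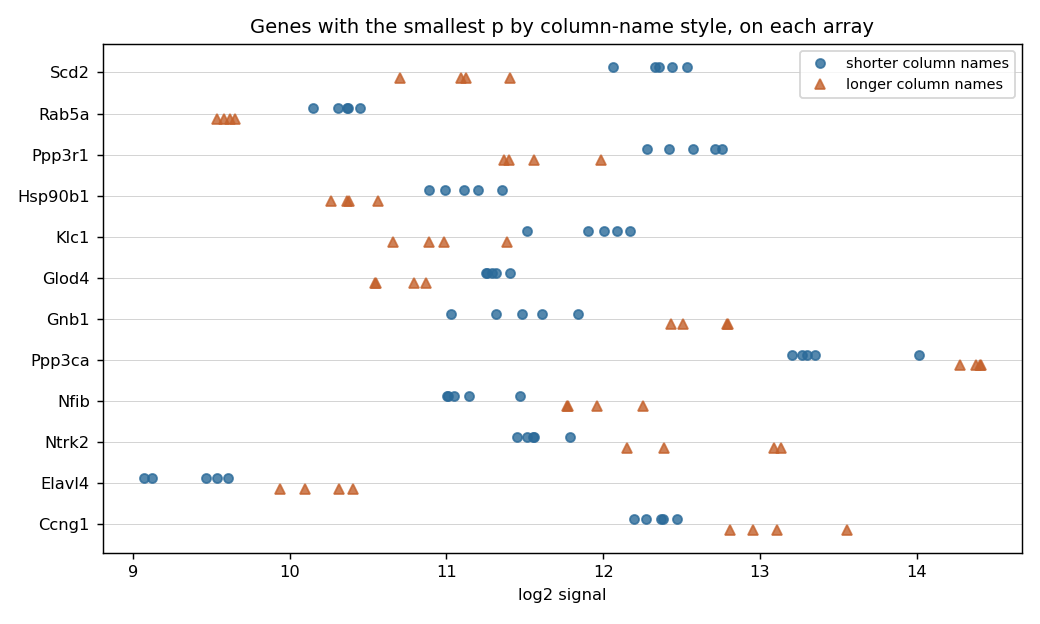
Log2 signal (x axis) on each array of the 12 named genes with the smallest p by column-name style, 6 higher (top) and 6 lower (bottom) in the 5 arrays of shorter names (circles) than in the 4 of longer names (triangles). The groups do not overlap for any of the 12.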

How the data were processed

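RNA of CA1 tissue was read on Affymetrix rat genome U34A arrays. Per the file headers, the authors deposited for each array a signal intensity, a detection call with its p-value, and the numbers of probe pairs placed and used. The software version and settings are not given in the sources used here. The values show that the deposited intensities had been scaled to nearly 1 trimmed mean (2% removed at each end, 1489 to 1493). Signals were rescaled here to a common trimmed mean (factors 0.999 to 1.00), taken to log2 and averaged over 9 arrays. The number of arrays limits the precision. Columns of 1 further array found beside those of young 7 were not used.

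Gene names came from the platform annotation. Wfs1, Gfap, Prox1 and Gapdh had no probe set with a single name, and the control probe sets alone were used for Gapdh. The members and the 48 gene lists (921 genes, 53 in more than 1 list) were chosen with earlier results of these data known. Lists are described by counts and medians, without a test. The genes named are the 20 brightest, the 6 dimmest and the 8 most variable, for each list the 3 brightest, the dimmest and up to 3 absent on all arrays in alphabetical order, the 6 with the smallest p in each direction of each fit, and some by name. Col1a1, Tac1, Tac3 and Vip were named after their values were seen.

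Differences by column-name style and by the Gapdh ratio were fitted with limma 3.58.1 in R 4.3.3 over the 2791 probe sets with Benjamini-Hochberg adjustment, checked on simulated data. Single values were compared by exact permutation with scipy 1.17.1. The labels do not say that each array is a separate rat, so a p-value here reflects only how much these arrays varied, and that variation may be technical. Alternatives were other scalings, detection filters, covariates, moderation, the deposited series table (intensities of unstated processing, unlogged, some below 0) and leaving out each array.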

Additional observations from a re-analysis of the deposited data

Results flagged for a closer look

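In 9 of 204 sets of 9 arrays examined (4.41%), a single array stood apart from the nearest of the others by more than Dixon's 95% limit. For sets chosen beforehand chance alone gives about 1 in 20. That rate does not apply here, since some genes were picked from these same values. Nfix, Rab14, Cyb5a and Hbb were picked for a large SD, and Slc5a3 by its fit on the Gapdh ratio, which is highest on young 4. Young 4 was the array that stood apart in 5 of the 9 sets. There Nfix, a nuclear factor I gene, stood at a log2 signal of 9.95 against 11.69 on the next array, Rab14, a vesicle traffic GTPase, at 9.60 against 11.28, Grm3, a metabotropic glutamate receptor, at 11.50 against 12.42, Cyp51, an enzyme of cholesterol synthesis, at 11.32 against 12.10, and Slc5a3, the inositol transporter, at 8.40 against 9.30. All 5 were low. Young 4 also had the fewest probe sets with unused pairs (20) and the highest Gapdh 3′ to 5′ ratio (0.37), whose part in these values was not tested.

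Young 5 was low in Cyb5a, cytochrome b5, at 9.77 against 11.74 on the next array, and in Pcna, the replication clamp, at 10.55 against 11.51. It had the most probe sets with unused pairs (336). Young 7 was low in the haemoglobin gene Hbb, at 10.55 against 11.999. The mean over the present members of the tubulin and actin list was high on young 3, at 13.58 against 13.41 on the next array.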

How the results depend on the processing

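The number of probe sets present on all arrays (2791) ran from 2794 to 2842 with any array left out, and from 2941 to 3419 when marginal calls, 8 or 5 of 9 arrays, or 1 column-name style alone were taken. Of the 921 genes of the lists, 373 were present on all arrays by at least 1 probe set. This fell to 264 when every probe set of the gene had to be present. The top of the ranking changed little: 17 to 20 of the 20 brightest genes were shared under the alternatives, fewest with the deposited series table. With that table the levels of 61 named genes moved by their SD or more, and those of 86 did not. The 78 probe sets that differed by style became 30 without the detection filter, 211 with the Gapdh ratio in the fit, 180 with the log2 number of probe sets with unused pairs in it, 299 with array weights, and 3 to 155 with an array left out. The 34 that moved with the Gapdh ratio became 0 after quantile scaling (265 at an unadjusted p under 0.05 by limma), 52 after median scaling, 18 without the filter, 54 with an intensity trend, 68 with style in the fit, 2 among probe sets with every pair used, 0 with the log2 number of probe sets with unused pairs in the fit (109 unadjusted), 0 with the beta-actin ratio (358 unadjusted), 0 with the hexokinase ratio (360 unadjusted), and 0 to 32 with an array left out. Under the hexokinase ratio the slope of Glul turned to -0.14. The cause was not tested. The fits on unused pairs were chosen after seeing the data, and the relations with the number of such probe sets were not among the planned tests. No paired analysis was possible because the arrays form 1 age group whose numbers pair nothing.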

Other observations

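The probe set with the largest spread had no gene name. It was called present on all 9 arrays, yet its signal ran from 0.499 on young 5 to 47149 on young 4, an SD of 5.43 on the log2 scale, with 7 to 13 of its 16 probe pairs used. Young 3 and young 9, with 11 pairs used, read 24158 and 24123, and young 2, with 7, read 106.6. The part of the unused pairs in this spread was not tested.

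Map2, the dendritic microtubule protein, was named after its values were seen. Its probe sets behaved unequally: of 5, those present on all 9 arrays had log2 means of 13.52 ± 0.21, 11.44 ± 1.07 and 11.43 ± 0.99 (SD, n = 9). The dimmer ones ran from 8.93 to 12.56 and from 9.32 to 12.23 while the brightest ran from 13.13 to 13.82.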
